A study of Mus musculus with 20 samples.

Results

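Peritoneal macrophages, which live free in the fluid of the peritoneal cavity, were compared with choroid plexus macrophages, which live in and on the tissue that makes cerebrospinal fluid. The 8 libraries were chosen by their titles, 4 of peritoneal and 4 of choroid plexus macrophages, out of 20 libraries in the series. All came from C57BL/6JRj mice, and the labels name no treatment, allele, age or sex. The other 12 libraries are 4 each of MHC II-high dura macrophages, MHC II-low dura macrophages and microglia, and they entered the fit and served as a reference for where a transcript is also found. Total RNA was sequenced, and the values are read counts for each of 24421 gene symbols. The labels give neither the isolation of the cells nor their purity, and they do not tie replicates to separate animals. A p-value below thus covers only the spread among these libraries, which may be technical.

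Resident macrophages share a core program set by the receptor Csf1r and the factor PU.1 (Spi1), and each tissue adds a program of its own. In the peritoneal cavity, retinoic acid and the transcription factor Gata6 sustain the large resident macrophages, which adhere to injured surfaces and carry much of the cavity's clotting and uptake machinery. At the borders of the brain, macrophages of the choroid plexus take up material between blood and cerebrospinal fluid and can present antigen through MHC class II. The choroid plexus also holds a dense sheet of epithelium that makes transthyretin (Ttr), a fibroblast stroma and fenestrated vessels, so transcripts of those cells can reach a macrophage library.

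Counts assigned to genes came to 23532894–27948494 in the peritoneal and 13383274–16052955 in the choroid plexus libraries, and 13111–13341 and 14860–15191 genes had a count. Levels below are CPM, counts scaled to a common library size with TMM factors. They are not divided by transcript length, so they are compared between libraries and not between genes. Log2 fold changes are peritoneal minus choroid plexus. The ± after a change is an approximate standard error (SE), its absolute size divided by the square root of the edgeR F statistic. It is a rough guide where a group has almost no counts. A gene was called at an edgeR adjusted p under 0.05 and a change of at least 2-fold. Of 13960 genes tested, 5119 (36.7%) were called, 1755 (12.6%) higher in peritoneal and 3364 (24.1%) higher in choroid plexus macrophages. The shares of 12.6% and 24.1% are the background for every count of list members below. The median log2 fold change over all tested genes was -0.13. For 8192 of the 13960 tested genes, peritoneal and choroid plexus libraries did not overlap in level. A difference in level between these bulk samples cannot be told apart from a difference in the share of cells that carry the transcript.

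One library outside the comparison stands apart. Microglia replicate 3 held Ttr at 9725 CPM, against 45.0, 338 and 147 CPM in the other 3 microglia libraries. It also held the epithelial genes Enpp2 (9054 CPM) and Kl (538 CPM) and the stromal genes Moxd1 (57.8 CPM) and Tcf21 (5.31 CPM). Its levels of choroid plexus macrophage genes were low, with Ms4a7 at 0.432 CPM, Cd163 at 0.247 CPM and Mrc1 at 16.2 CPM. Without this library, 1850 genes were called higher in peritoneal and 3363 higher in choroid plexus macrophages, and these include all 1755 and 3288 of the 3364 called with it.

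The 4 marker genes separated the populations in every library. Alox15 makes 12/15-lipoxygenase, an enzyme that oxidises membrane fatty acids, and lies at chr11:70344152-70352031 on the minus strand of mm10. Its level was 11264, 12434, 12290 and 13714 CPM in peritoneal replicates 1 to 4 and 0, 0.264, 0 and 0.127 CPM in the choroid plexus. The groups did not overlap, and the log2 fold change was 16.83 ± 1.33 (edgeR adjusted p = 1.21e-08), or 17.92 without choroid plexus replicate 2.

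Gata6 was 144, 183, 171 and 189 CPM in peritoneal macrophages and 3.4, 1.45, 4.88 and 9.02 CPM in the choroid plexus. The 4 peritoneal libraries lay far above the others, with a log2 fold change of 5.19 ± 0.71 (edgeR adjusted p = 8.16e-06). The low Gata6 level of the choroid plexus was highest in replicate 4, the library with the most stromal transcripts by summed list level, and its cell of origin was not tested. Apoe, the main lipid-carrying apolipoprotein of the brain (chr7:19696109-19699188, minus strand), was abundant on both sides. It measured 10362, 15323, 17374 and 12686 CPM in peritoneal and 41400, 44998, 47190 and 41006 CPM in choroid plexus macrophages, a log2 fold change of -1.65 ± 0.15 (adjusted p = 9.65e-09).

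Olfml3, a secreted olfactomedin-domain protein (chr3:103722222-103738001, minus strand), was 912, 909, 955 and 903 CPM in the choroid plexus libraries. In peritoneal libraries it was 0, 0.0729, 0.0345 and 0.0857 CPM, so the groups lay apart and the log2 fold change was -14.12 ± 0.27 (adjusted p = 5.83e-19). The spread of Olfml3 over the choroid plexus libraries was small, as its values show. In the rest of the series it was 2984 ± 368 CPM (SD, n = 4) in microglia. The means were 197 CPM in MHC II-high and 189 CPM in MHC II-low dura, so Olfml3 was present in all 4 brain populations.

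**Figure D1:**
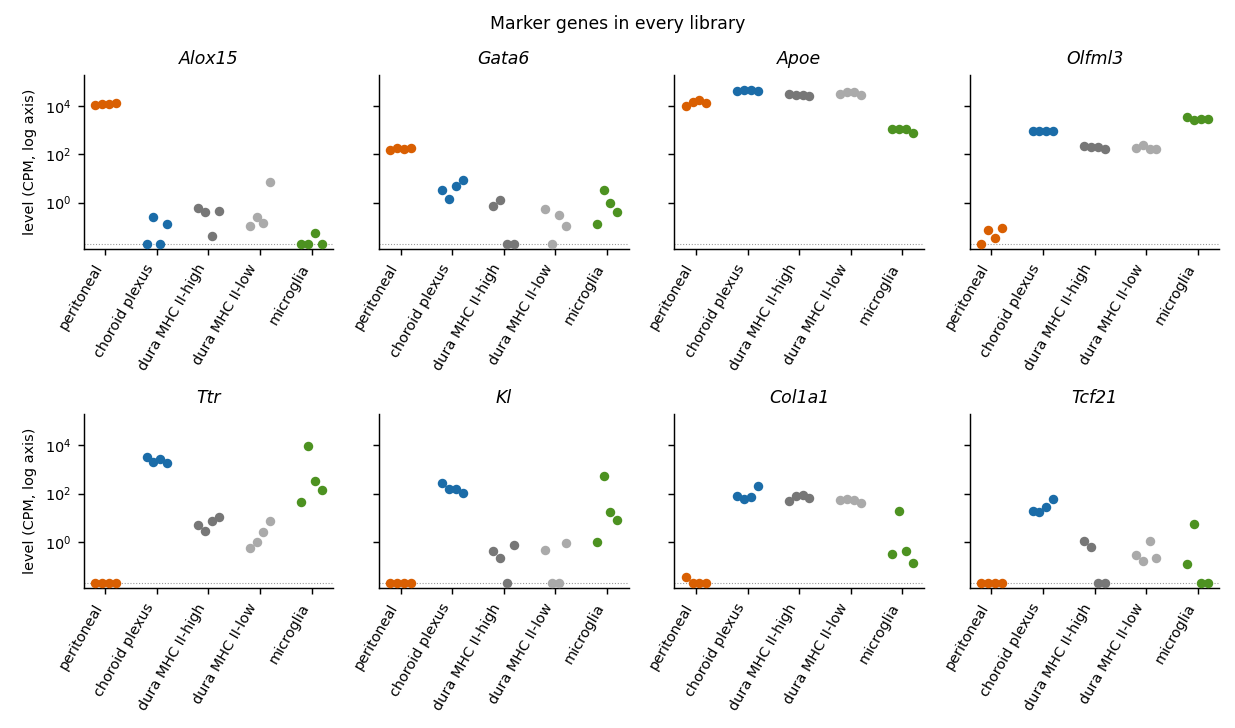
Level of 8 genes in each of the 20 libraries, 1 point a library, on a log axis of CPM, with values under 0.02 drawn at the dotted line. Alox15 and Gata6 are highest in the 4 peritoneal libraries, Olfml3 is under 0.1 CPM there, Ttr and Kl are highest in the choroid plexus libraries and microglia replicate 3, and Col1a1 is also present in the dura libraries.

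Genes of macrophages in general were present in both populations. Adgre1, which makes the F4/80 antigen, was 3020, 3170, 2477 and 3577 CPM in peritoneal and 2219, 1996, 2042 and 1746 CPM in choroid plexus macrophages, a difference of 0.61 ± 0.12 that did not reach 2-fold. Cd68 (581–644 against 668–814 CPM) and the uptake receptor Mertk (101–148 against 113–140 CPM) were not called either. Csf1r differed more, at 1972, 2460, 1357 and 2821 CPM against 10627, 10128, 9834 and 8945 CPM, with a log2 fold change of -2.20 ± 0.17 (adjusted p = 7.7e-10). Of 14 core genes tested, 2 were higher in peritoneal macrophages (Itgam, Tyrobp), near the background of 12.6%. In the choroid plexus 5 were higher (background 24.1%), including Fcgr1, Aif1 and Sirpa, with a list median of -0.57.

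By the naming rule, the 14 largest peritoneal differences were in Alox15, Serpinb2, Slpi, Selp, F7, Prg4, Padi4, Cyp26a1, Saa3, F10, Fn1, Vmn2r26, S1pr5 and Cd177. The promoters of the leading genes with an entry in the RefSeq table (GRCm38.p6, the build of mm10) are shown as the regulatory sequence next to the genes with the widest contrast. Each line gives the 250 bases before the start, 5′ to 3′ on the gene's strand, and capitals mark a match on either strand to the GATA motif (AGATAA, its variant AGATAG, and with a leading T the forms TGATAA and likewise TGATAG), the C/EBP motif TTGCNNAA or the PU.1 motif GAGGAAGT.

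Serpinb2: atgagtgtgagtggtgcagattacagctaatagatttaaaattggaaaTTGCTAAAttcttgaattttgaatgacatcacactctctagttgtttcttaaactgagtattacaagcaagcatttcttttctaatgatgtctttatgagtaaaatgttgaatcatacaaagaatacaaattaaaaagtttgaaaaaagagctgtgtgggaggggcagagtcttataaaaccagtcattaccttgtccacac
Slpi: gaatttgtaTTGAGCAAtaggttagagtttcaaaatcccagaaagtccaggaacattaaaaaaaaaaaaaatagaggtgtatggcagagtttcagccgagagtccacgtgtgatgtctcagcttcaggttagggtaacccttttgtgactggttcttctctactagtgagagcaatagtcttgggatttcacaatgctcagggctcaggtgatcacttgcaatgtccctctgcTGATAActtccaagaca
Selp: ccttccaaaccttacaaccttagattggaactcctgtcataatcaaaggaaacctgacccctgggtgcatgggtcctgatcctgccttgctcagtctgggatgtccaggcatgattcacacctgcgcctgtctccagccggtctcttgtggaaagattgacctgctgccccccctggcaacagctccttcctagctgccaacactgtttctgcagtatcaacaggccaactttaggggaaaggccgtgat

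The Serpinb2 window is chr1:107511173-107511422 (plus strand) and holds 1 C/EBP match, TTGCTAAA. The Slpi window is chr2:164356508-164356757 (minus strand) and holds 1 GATA match, TGATAA, and 1 C/EBP match, TTGAGCAA, on the opposite strand. The Selp window, chr1:164115014-164115263 (plus strand), held none of these letters. Over 1 window for each of 27025 genes in the table, 27.1% held the GATA motif, 9.55% the C/EBP motif and 2.42% the PU.1 motif. Among genes with a window, the GATA motif was found in 17.1% of 11101 tested, 18.2% of 1413 higher in peritoneal and 15.9% of 2572 higher in choroid plexus macrophages. Genes under different names in the files and the table were matched by synonym, and a match of letters is a description only.

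Serpinb2, an inhibitor of plasminogen activators, was 1923, 1739, 2840 and 2067 CPM in peritoneal libraries and had 2 counts over the 4 choroid plexus libraries. That is a ratio of 63706 with a 95% counting interval of 17635–526044. Slpi, a secreted inhibitor of leukocyte proteases, was 2562, 3463, 2954 and 3006 CPM against 0–0.135 CPM, and its log2 fold change was 15.02 ± 0.90 (adjusted p = 3.23e-09). Selp, the adhesion receptor P-selectin better known from platelets and endothelium, was 848, 1204, 921 and 1170 CPM. It had 2 counts in the choroid plexus, a ratio of 30379 (interval 8410–250853). For each of the 3 genes the lowest peritoneal library was above all choroid plexus libraries, as the naming rule required.

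Several of these genes belong to clotting. F7 and F10, the coagulation factors VII and X, are neighbours on chromosome 8 at chr8:13026034-13035809 and chr8:13037308-13056676. F7 was 88.1, 94.6, 103 and 122 CPM in peritoneal macrophages and had no count in the choroid plexus, so it was at least 2012-fold higher against a floor of 3 counts over the 4 libraries. F10 was 539, 492, 511 and 561 CPM against 0–0.127 CPM, a log2 fold change of 12.81 ± 0.46 (adjusted p = 2.52e-14). Fibronectin (Fn1) was 14209, 28808, 10042 and 24465 CPM against 1.92, 3.43, 1.96 and 3.43 CPM (12.81 ± 1.02, adjusted p = 1.27e-08). Peritoneal replicates 2 and 4 were the highest for Fn1, and the groups stayed far apart. Of 16 coagulation and fibrinolysis genes tested, 8 were higher in peritoneal and 5 in choroid plexus macrophages, with a list median of 1.03. Gas6, a vitamin K-dependent ligand of the uptake receptors, went the other way, at 3.8–5.1 against 824–885 CPM (-7.67 ± 0.19, adjusted p = 2.86e-17).

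The remaining leading peritoneal genes had different roles. Prg4 (lubricin, a joint and serosal lubricant) was 2718, 3895, 1795 and 4155 CPM against 0.0677–0.528 CPM. Padi4, which turns arginine in proteins into citrulline, was 1485, 1881, 2069 and 1956 CPM against 0–0.318 CPM. Cyp26a1, an enzyme that clears retinoic acid, was 83, 47.4, 75 and 80.7 CPM and had no choroid plexus count, at least 1412-fold higher. All 3 were apart in every library, as the naming rule required. Saa3, an acute-phase apolipoprotein with close relatives in its family, was 1377–3152 CPM against 0–0.508 CPM. Vmn2r26, of the large vomeronasal receptor family, had no choroid plexus count and was at least 736-fold higher, and Cd177 was at least 572-fold higher. S1pr5, a sphingosine 1-phosphate receptor, had 1 count in the choroid plexus, a ratio of 7094 (interval 1273–280211). The reads of close family members could be split by the counting, which the sources used here do not describe. The neutrophil list summed to 152–287 CPM in peritoneal and 109–132 CPM in choroid plexus libraries. Of its 3 tested genes, S100a8 was higher in peritoneal macrophages and 2 were not called. The level of S100a8 was low, at least 33.2-fold above a choroid plexus floor of only 0.0507 CPM. The cell of origin of Padi4 and Cd177 was not tested.

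The choroid plexus libraries carried transcripts of epithelium. Ttr was 3178, 2080, 2596 and 1936 CPM in choroid plexus replicates 1 to 4 and had no count in the peritoneal libraries, at least 88693-fold higher. Kl, klotho, a coreceptor made by the epithelium (chr5:150952607-150993817, plus strand), was 280, 148, 159 and 106 CPM and also had no peritoneal count. Folr1, a folate receptor of the epithelium (chr7:101858331-101870788, minus strand), was 63.3, 44, 50.7 and 39.2 CPM against 0.173, 0, 0.138 and 0 CPM. All 3 were highest in replicate 1 and lowest in replicate 4. The fitted change of Folr1 was -9.13 ± 1.66 (adjusted p = 0.000166), from a fit whose spread takes in microglia replicate 3, which held 178 CPM of Folr1.

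Over the list of 51 choroid plexus epithelial genes in the files, the summed level was 5062–9327 CPM in the choroid plexus and 483–592 CPM in the peritoneal libraries. The sum was 9327 CPM in choroid plexus replicate 1, 6157 in replicate 2, 6873 in replicate 3 and 5062 in replicate 4. Of 50 tested, 46 were higher in the choroid plexus and 2 in peritoneal macrophages, with a median of -9.45, or -8.67 with genes of no counts at their bound. The peritoneal sum included Lbp (145–208 CPM), which binds bacterial lipopolysaccharide, and Calml4 (60–91.2 CPM), both called higher there, and Ezr and Cab39l, neither of them called. Lbp lost its call without any 1 of the choroid plexus replicates (adjusted p 0.0505–0.0599). Ttr, Kl and Folr1 were at 0–0.173 CPM in every peritoneal library.

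Fibroblast transcripts were also present, and their order over the libraries was different. Col1a1, a chain of type I collagen (chr11:94936224-94953042, plus strand), was 81.1, 62.7, 74.6 and 207 CPM in choroid plexus replicates 1 to 4, with 1 count in peritoneal libraries. Tcf21, a transcription factor of fibroblasts (chr10:22817281-22820174, minus strand), was 19.7, 17, 28.5 and 60.9 CPM with no peritoneal count. The matrix proteoglycan Dcn, at 67.3, 60.5, 104 and 215 CPM, followed the same order. Replicate 4 was highest for all 3. Col1a1 was also present in the 8 dura libraries, at 42.9–85.8 CPM. The list sum was 1621, 1409, 1690 and 3016 CPM over the 4 choroid plexus libraries against 229–299 CPM in peritoneal libraries, and 33 of 37 tested members were higher in the choroid plexus, with a median of -9.28 (-8.19 with bounds).

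The peritoneal part of the fibroblast sum included Aldh1a2, which makes retinoic acid, at 55.1, 54.7, 37 and 73.9 CPM against 0.0677–0.762 CPM (6.81 ± 0.48, adjusted p = 2.64e-09). Vessel genes were present at lower levels. The endothelial sum was 128–197 CPM against 1.03–2.42 CPM, led by Plvap of fenestrated endothelium (49, 70.6, 54.9 and 31.8 CPM) and the VEGF receptor Kdr (29.1, 36, 24.2 and 13.7 CPM). All 14 tested endothelial genes were called, with a median of -8.07 (-6.99 with bounds). Mural cell genes summed to 65.5–195 CPM, highest in replicate 4, against 1.59–2.95 CPM.

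**Figure D2:**
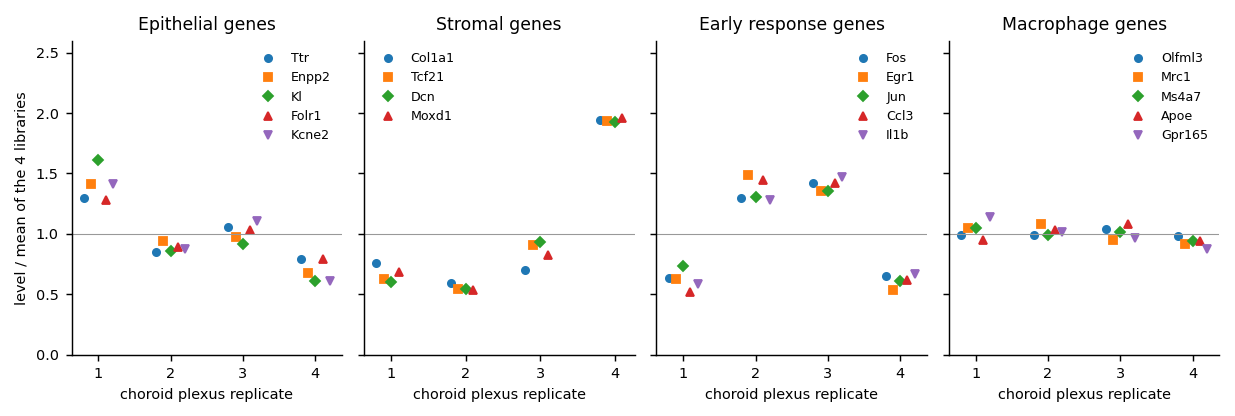
Level of each gene in the 4 choroid plexus libraries divided by its mean over them, for 5 epithelial, 4 stromal, 5 early response and 5 macrophage genes, 1 symbol a gene. Epithelial genes are highest in replicate 1, stromal genes in replicate 4 and early response genes in replicates 2 and 3, while the macrophage genes stay near 1.

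To set epithelial and fibroblast transcripts apart from macrophage genes, 2 patterns over single libraries were used, chosen after the data had been seen and with no test. A gene had the first pattern if microglia replicate 3 held at least 5 times the highest of the other microglia libraries, and the second if it did not have the first and choroid plexus replicate 4 held at least 1.5 times the highest of the other 3. A gene that met both rules, such as Col1a1 or Tcf21, was thus counted under the first. Of 47 epithelial list genes at 1 CPM or more in the choroid plexus, 44 had the first pattern and none the second. Of 31 fibroblast genes 14 had the first, 12 the second and 5 neither. The patterns missed most vessel genes, since 9 of 11 endothelial and 6 of 10 mural cell genes had neither. Genes with neither pattern can thus still include transcripts of vessels and other cells. Of 19 border macrophage markers none had the first and 1 the second, and of 14 MHC class II genes and 14 core genes none had either. Over all 12055 tested genes at this level the shares were 5.28% and 3.24%.

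Of the 3364 genes higher in the choroid plexus, 576 had the first pattern, 314 the second without the first and 2474 (73.5%) neither. A simpler rule asked for 25% of the choroid plexus level in another brain population, and 3105 genes met it, but 2813 did so without microglia replicate 3. The 14 largest genes it names include 8 with the first pattern, Clu, Prelp, Ppp1r1b, Col8a2, Gpm6a, Kcne2, Efemp1 and Ptgds, and 9 of the 14 met the rule without that library. Kcne2, a potassium channel subunit of the epithelium, was 54, 33.4, 42.5 and 23.3 CPM in the choroid plexus and 147 CPM in microglia replicate 3. Clu (clusterin) was 230, 160, 194 and 135 CPM and 670 CPM there. The 8 genes had no peritoneal count. Of them Ptgds, Col8a2 and Efemp1 still met the 25% rule without microglia replicate 3, at 160%, 36.0% and 33.1% of the choroid plexus level, so they were also present in another brain population. The cell of origin of the 8 was not tested.

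Outside the lists of other cells, 128 genes higher in the choroid plexus were below 25% of its level in every other brain population. Without microglia replicate 3 there were 420. The naming rule gives the 6 largest of the 128. Alpl, Moxd1, Coch, Igfbp7, Itga8 and Adh1 were all highest in choroid plexus replicate 4, as Col1a1 and Tcf21 were. Alpl, an alkaline phosphatase, was 140, 125, 203 and 481 CPM, and Igfbp7, a secreted binding protein of growth factors, 170, 150, 236 and 539 CPM. Moxd1 was 162, 126, 196 and 464 CPM, at least 8588-fold above the peritoneal floor. The cell of origin of these transcripts was not tested.

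**Figure D3:**
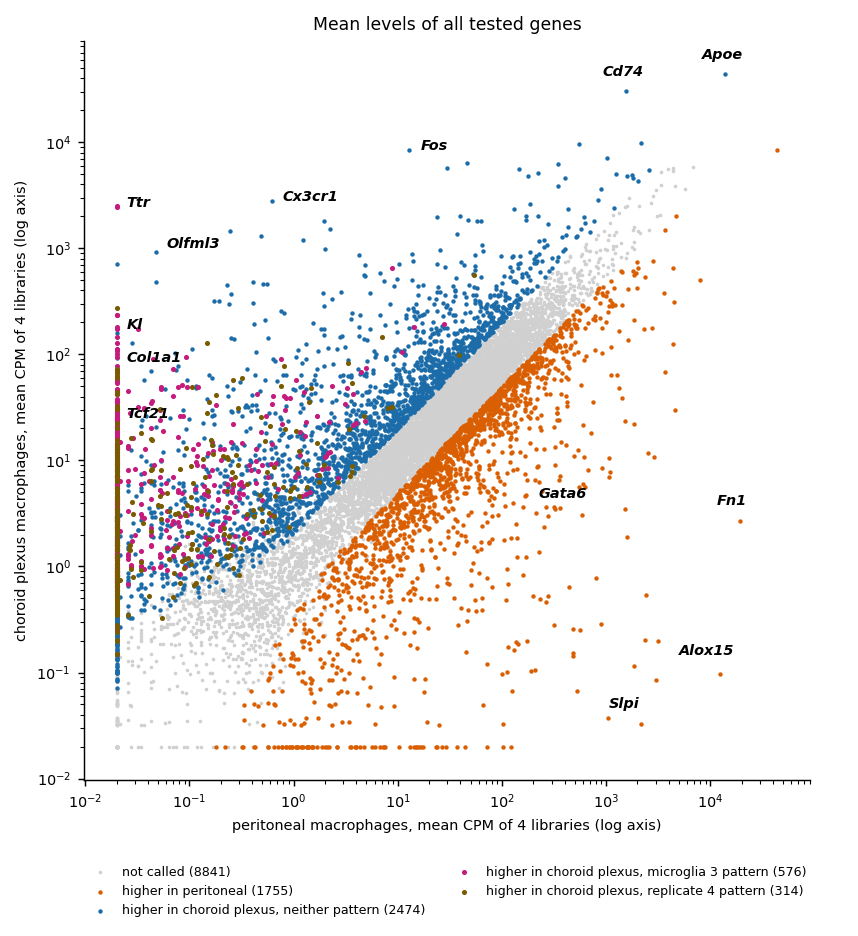
Mean level of each of the 13960 tested genes in peritoneal (x) and choroid plexus (y) macrophages, both log axes of CPM with values under 0.02 drawn at 0.02, coloured by call and by the pattern over libraries. The 576 and 314 genes with either pattern lie mostly at low peritoneal levels, with Ttr, Kl, Col1a1 and Tcf21 at the left edge, while Cd74, Fos and Cx3cr1 lie among the 2474 genes with neither.

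Among genes with neither pattern and outside the lists of other cells, the largest choroid plexus differences were Cyr61, Gpr165, Ch25h, Olfml3, Chst7, F11r and Slco2b1. Gpr165, an orphan receptor (chrX:96713441-96719388, plus strand), was 183, 163, 155 and 141 CPM in the choroid plexus with no peritoneal count, at least 5808-fold higher. Ch25h, which makes 25-hydroxycholesterol (chr19:34473778-34475164, minus strand), was 80.1, 125, 124 and 118 CPM, also with no peritoneal count. F11r, the junctional adhesion molecule A, was 487, 497, 494 and 425 CPM against 0–0.0857 CPM (-13.17 ± 0.24, adjusted p = 5.83e-19). In each of these genes the 8 libraries fell into groups that did not overlap, as the rule for naming them required.

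The promoters of Gpr165, Ch25h and Apoe are printed in the same way, for the genes shared with other brain macrophages and for the marker present on both sides.

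Gpr165: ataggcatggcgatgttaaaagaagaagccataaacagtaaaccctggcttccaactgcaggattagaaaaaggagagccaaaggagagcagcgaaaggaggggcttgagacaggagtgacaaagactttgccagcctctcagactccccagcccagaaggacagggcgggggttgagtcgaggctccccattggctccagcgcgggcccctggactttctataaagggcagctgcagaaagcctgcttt
Ch25h: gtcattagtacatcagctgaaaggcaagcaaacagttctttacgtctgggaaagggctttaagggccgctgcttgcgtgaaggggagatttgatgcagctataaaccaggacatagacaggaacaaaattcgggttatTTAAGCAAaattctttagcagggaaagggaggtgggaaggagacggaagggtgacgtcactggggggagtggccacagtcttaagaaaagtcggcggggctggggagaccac
Apoe: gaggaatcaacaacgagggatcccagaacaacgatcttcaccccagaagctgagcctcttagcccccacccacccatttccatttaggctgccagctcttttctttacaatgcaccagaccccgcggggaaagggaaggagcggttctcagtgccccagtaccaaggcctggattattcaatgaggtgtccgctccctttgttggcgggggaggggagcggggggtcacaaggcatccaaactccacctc

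The Gpr165 window is chrX:96713218-96713467 (plus strand), the Ch25h window chr19:34475149-34475398 (minus strand) and the Apoe window chr7:19699189-19699438 (minus strand). The Ch25h window holds 1 C/EBP match on the opposite strand, TTAAGCAA. The other windows held none of the letters searched, nor did those of Cyr61 (Ccn1 in the table) and Olfml3. Alox15 and Clu are not shown.

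Cyr61, a matricellular protein, was 437, 824, 1011 and 554 CPM in choroid plexus replicates 1 to 4 and had 1 peritoneal count. It was higher in replicates 2 and 3, as the early response genes were, and microglia replicate 3 held 3.84 times the highest of the other microglia libraries. Slco2b1, an organic anion transporter, was 1590, 1512, 1408 and 1265 CPM against 0.0691–0.364 CPM (-12.52 ± 0.26, adjusted p = 2.09e-18). The fractalkine receptor Cx3cr1, which ties microglia to neurons, was 3172, 2838, 2776 and 2459 CPM against 0.255–1.03 CPM (-12.15 ± 0.27, adjusted p = 6.18e-18). Cd276, an immune checkpoint ligand, was 59.4–70.4 CPM with 2 peritoneal counts. Cd72, a receptor best known on B cells, was 278–328 CPM against 0–0.484 CPM, though 41.6% of its exon bases overlap Tesk1 on the other strand.

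The lists of peritoneal, border macrophage and microglia markers were chosen with earlier results of these data known and are no independent evidence. Of 23 peritoneal markers tested, 23 were higher in peritoneal macrophages (median 10.94). Of 21 border macrophage markers, 15 were higher in the choroid plexus and 4 in peritoneal macrophages (median -3.21). The mannose receptor Mrc1 was 1929, 1992, 1743 and 1683 CPM against 58.4, 42.2, 27.7 and 62.2 CPM (-5.27 ± 0.20, adjusted p = 1.96e-14). Ms4a7, a tetraspan-like membrane protein of border macrophages, was 502, 475, 487 and 451 CPM against 0.129–0.621 CPM (-10.14 ± 0.32, adjusted p = 1.3e-15).

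The 4 border markers that were higher in peritoneal macrophages were Pf4, Lyve1, Cd209b and Cd209f. The chemokine Pf4, listed here as a choroid plexus marker, was 832, 1378, 1752 and 622 CPM in peritoneal and 293, 287, 333 and 310 CPM in choroid plexus macrophages (1.91 ± 0.25, adjusted p = 2.74e-06). The hyaluronan receptor Lyve1 was 57.8–84 against 2.16–4.68 CPM (4.44 ± 0.26, adjusted p = 2.03e-11). Cd209b, one of several closely related lectins, was 13.5–22.5 CPM with 2 choroid plexus counts. Apoe, Olfml3, Ms4a7 and Mrc1 were thus higher in the choroid plexus and Pf4 was lower.

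Of 17 genes used as microglia markers, 13 were higher in choroid plexus than in peritoneal macrophages and none lower (median -4.17). Siglech was 108–147 CPM, Gpr34 390–502 CPM and Sparc 81–220 CPM in the choroid plexus, the last highest in replicate 4, and all 3 were at 1.17 CPM or less in peritoneal libraries. Tmem119 (888, 874, 974 and 778 CPM) and P2ry12 (253, 284, 256 and 242 CPM) were chosen after their values were seen. In microglia they were 5487 ± 771 and 5779 ± 728 CPM (SD, n = 4). Sall1, the microglial transcription factor, was 0–0.0739 CPM in the choroid plexus against 388 ± 93.8 CPM in microglia (SD, n = 4), and it was not called between peritoneal and choroid plexus macrophages by edgeR (adjusted p = 0.116).

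**Figure D4:**
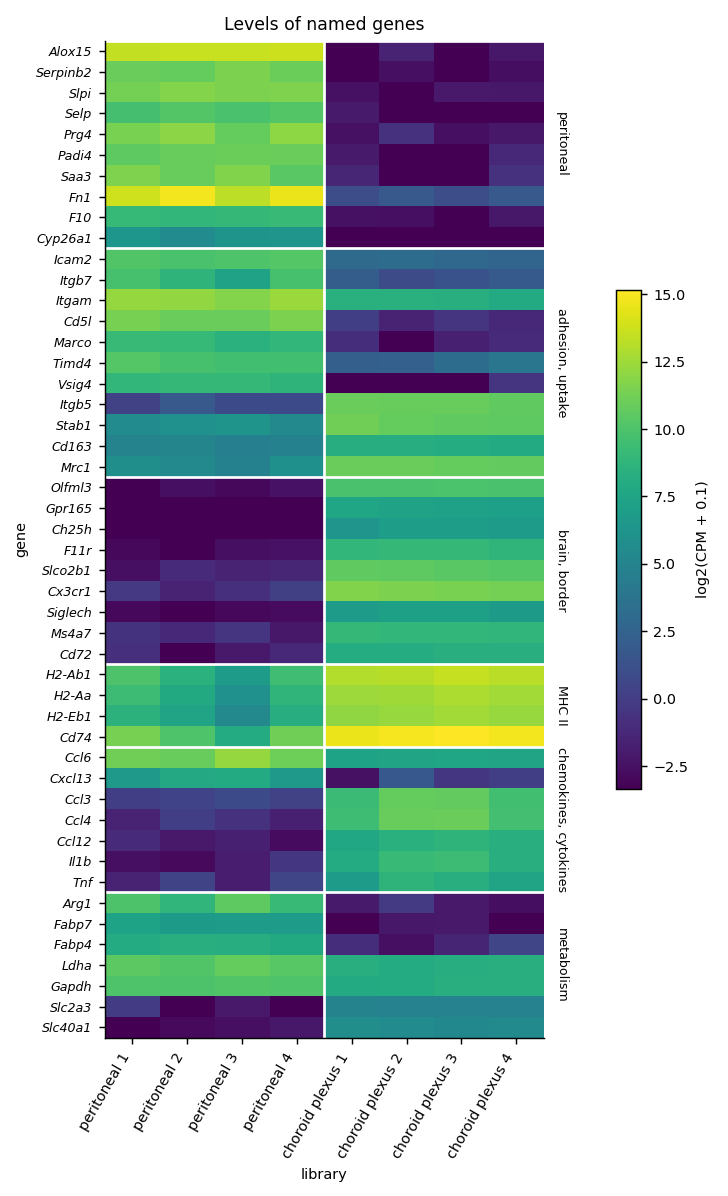
Level of selected named genes in the 8 libraries as log2(CPM + 0.1), with genes in rows grouped by role and libraries in columns. The peritoneal block is bright on the left and near the floor on the right, the brain and border block is the reverse, and peritoneal replicate 3 is the darkest peritoneal library for the 4 MHC class II genes.

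Transcription factors of tissue macrophages were split, 6 of 29 higher in peritoneal and 15 higher in choroid plexus macrophages (median -1.0045). Besides Gata6, the peritoneal side had the repressors Bhlhe40 (404, 402, 357 and 499 against 10.8–15.6 CPM, 4.90 ± 0.54, adjusted p = 6.71e-07) and Bhlhe41 (64.2–204 against 35.6–44.1 CPM, 1.78 ± 0.45, adjusted p = 0.00266). The retinoic acid receptor Rarb was 38.2–72.8 against 3.84–14.2 CPM, highest in replicate 4 on both sides. Its change was 2.81, or 3.43 without choroid plexus replicate 4, and 34.1% of its exon bases overlap Top2b on the other strand. The choroid plexus side had Maf (192, 197, 200 and 216 against 19.7–23.9 CPM, -3.21 ± 0.13, adjusted p = 3.53e-14) and Spic, a factor of iron-recycling macrophages, at 9.02–16.7 CPM with 3 peritoneal counts.

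Genes of retinoid handling, which make and sense the vitamin A signal behind Gata6, were called in both directions. Of 18 tested, 7 were higher in peritoneal macrophages (background 12.6%), among them Aldh1a2, Cyp26a1, Rarb and Gata6. In the choroid plexus 4 were higher, near the background of 24.1% (median 0.23). On the choroid plexus side, the retinol uptake receptor Stra6 (11.6–23.6 CPM) had the pattern of microglia replicate 3, as the epithelial genes did, and no peritoneal count.

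Adhesion molecules differed strongly in kind. Of 23 tested, 13 were higher in peritoneal and 9 in choroid plexus macrophages (median 1.98). Itgam, the alpha chain of CD11b, was 4896, 4592, 3304 and 5290 against 335, 346, 317 and 255 CPM (3.85 ± 0.16, adjusted p = 5.03e-14), with 68.7% of its exon bases shared with the same-strand model Gm49368. Icam2 was 1106, 933, 1067 and 1224 against 6.42–9.03 CPM (7.14 ± 0.25, adjusted p = 4.44e-15). The choroid plexus libraries had Itgb5, a partner of integrin alpha V, at 1949, 1836, 1891 and 1601 CPM against 1.07–3.39 CPM (-9.86 ± 0.29, adjusted p = 2.9e-16). Vcam1 was 244–418 CPM against 0–0.449 CPM, highest in choroid plexus replicate 4.

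Uptake receptors were divided between the populations. Of 20 scavenger and uptake genes, 6 were higher in peritoneal and 9 in choroid plexus macrophages (median -0.02). Peritoneal macrophages had Cd5l, a secreted scavenger protein (2672, 1993, 1993 and 2908 against 0.264–0.961 CPM, 12.13 ± 0.47, adjusted p = 1.37e-13), and Marco (348–572 against 0–0.443 CPM, 10.87 ± 0.49, adjusted p = 1.26e-12). Timd4, the Tim-4 receptor for phosphatidylserine on dying cells, was 760–1228 against 4.73–14.8 CPM (6.74 ± 0.32, adjusted p = 1.58e-12). The choroid plexus had Stab1 (2314, 1798, 1620 and 1552 against 41.5–77.3 CPM, -4.97 ± 0.25, adjusted p = 1.58e-12) and the haemoglobin receptor Cd163 (246–296 against 24.9–33.6 CPM, -3.25 ± 0.23, adjusted p = 3.61e-10).

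Lectins and complement were split as well. Of 24 C-type lectins and Siglecs, 8 were higher in peritoneal and 14 in choroid plexus macrophages (median -1.67). The fungal and mycobacterial receptors Clec4e (167–268 against 1.18–1.58 CPM) and Clec4d (54.5–113 against 0.148–1.38 CPM) led the peritoneal side. The inhibitory receptors Clec12a (280–319 against 4.45–18.1 CPM) and Siglece (227–294 against 9.69–15.8 CPM) were on the other. Of 17 complement genes 5 were higher in peritoneal and 7 in choroid plexus macrophages (median -0.51). Properdin (Cfp) was 2690, 3087, 2751 and 2924 against 7.78–13.2 CPM (8.05 ± 0.20, adjusted p = 2.78e-17), and the complement receptor Vsig4 417–515 against 0–0.572 CPM. Vsig4 had counts in choroid plexus replicate 4 only, and its change of 11.57 became 16.41 without that library.

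Cfb (394–1746 against 7.32–13.3 CPM, 6.63 ± 0.68, adjusted p = 2.93e-07) shares 79.5% of its exon bases with the same-strand model Gm20547. C4b was 8673, 8116, 4008 and 10901 against 474, 447, 584 and 525 CPM (3.96 ± 0.46, adjusted p = 9.44e-07). Peritoneal replicate 3 was lowest for both. On the choroid plexus side, C5ar2, a second receptor for C5a, was 39–52 against 2.44–2.9 CPM (-4.03 ± 0.15, adjusted p = 1.36e-14), while Serping1 and Cd59a had the pattern of microglia replicate 3.

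MHC class II genes were higher in the choroid plexus, 11 of 14 tested and none lower (median -2.60, against a background of 24.1%). The class II beta chain H2-Ab1 was 8392, 9294, 11551 and 9466 CPM in the choroid plexus. In peritoneal replicates 1 to 4 it was 1008, 354, 111 and 707 CPM, replicate 3 being lowest (-4.15 ± 0.46, adjusted p = 4.97e-07). The invariant chain Cd74 was 25473, 30012, 36351 and 29277 CPM against 2619, 1047, 268 and 2243 CPM (-4.29 ± 0.47, adjusted p = 3.87e-07). H2-Aa and H2-Eb1 followed the same order over the peritoneal libraries. H2 genes are closely related, and how reads that fit several were counted is not given in the sources used here.

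Transcripts of dendritic and B cell lists were present on both sides. The dendritic cell list summed to 149–235 CPM in peritoneal and 423–533 CPM in choroid plexus libraries, and the B cell list to 111–122 and 140–151 CPM, with 3 of 9 B cell genes higher on each side. In peritoneal libraries Flt3 was 0–0.3 CPM and Zbtb46 1.49–2.52 CPM, and the B cell genes Cd79a and Ms4a1 were 1.31–8.19 and 1.35–6.34 CPM, lowest in replicate 2. In the choroid plexus Flt3 was 2.67–5.69 CPM and Zbtb46 8.67–11 CPM, both higher there (adjusted p = 5.6e-06 and 2.71e-09). The 7 peritoneal counts of Flt3 all came from replicate 4, and its log2 fold change of -5.71 became -9.42 without that library. Of 13 dendritic cell genes, 8 were higher in the choroid plexus and 1, Cd209a, in peritoneal macrophages (median -1.66). Cd4, a coreceptor also found on macrophages, was 94.6, 95.3, 127 and 94.5 CPM in the choroid plexus, where Cd3e had no count and the other T and NK cell genes were at 0.33 CPM or less.

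All 20 tested chemokines were called, with 15 higher in the choroid plexus, 5 in peritoneal macrophages and a median of -4.90. Ccl3, also known as MIP-1 alpha, was 617, 1735, 1698 and 737 CPM against 0.967, 1.24, 1.66 and 1.07 CPM (-9.91 ± 0.41, adjusted p = 3.09e-13). Ccl4 was 686, 1877, 1930 and 776 CPM against 0.214–0.984 CPM (-11.36 ± 0.51, adjusted p = 1.43e-12). Both were more than 2-fold higher in choroid plexus replicates 2 and 3 than in 1 and 4. Ccl12 was 213–407 CPM and Ccl7 280–659 CPM, each at 1.66 CPM or less in peritoneal libraries.

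The peritoneal chemokines were Ccl6 (2318, 1838, 4760 and 2168 against 168–194 CPM, 3.96 ± 0.25, adjusted p = 8.29e-11), Ccl24 (134–343 against 15.6–24.6 CPM, 3.60 ± 0.27), Ccl9 (600–1094 against 99.1–117 CPM, 2.84 ± 0.17), Pf4 and Cxcl13. Cxcl13, which draws B cells, was 96.8, 223, 255 and 101 CPM against 0.0739–3.23 CPM. Its log2 fold change of 7.07 became 8.19 without choroid plexus replicate 2. Of 23 cytokines and growth factors, 2 were higher in peritoneal and 13 in choroid plexus macrophages (median -1.91). Il1b was 263, 575, 662 and 301 CPM in the choroid plexus and 0.0364–0.643 CPM in peritoneal libraries, and Tnf 120, 414, 312 and 180 against 0.172–1.33 CPM. Tgfb2 was a peritoneal gene, at 245, 497, 205 and 335 against 6.3–14.2 CPM (5.14 ± 0.83, adjusted p = 4.84e-05).

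Most immediate early genes were higher in the choroid plexus. Of 19 immediate early and heat shock genes, 17 were higher in the choroid plexus and none in peritoneal macrophages (median -4.76). Fos was 5349, 10890, 11957 and 5493 CPM against 9.26, 10.8, 13.1 and 18.3 CPM (-9.35 ± 0.32, adjusted p = 5.27e-15). Egr1 was 3549, 8461, 7706 and 3067 against 14.9–41.3 CPM, and Jun 4627, 8246, 8549 and 3827 against 36.9–52.3 CPM. In 14 of the 19 genes both choroid plexus replicates 2 and 3 held at least 1.5 times the higher of replicates 1 and 4, against 1.20% of 12055 genes. Of 19 chemokines at 1 CPM or more 6 did so, and of 21 cytokines 5. The replicates and the ratio of this rule were chosen after the data had been seen, so these counts are a description only. The other 12 brain libraries held Fos at 7768–13726 CPM, and the 4 peritoneal libraries were the lowest of the 20. How the cells of each tissue were handled is not in the labels, and its part in these differences was not tested.

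Of 19 Toll-like receptors and adaptors, 10 were higher in the choroid plexus (background 24.1%), 2 in peritoneal macrophages (background 12.6%) and 7 were not called (median -1.10). Tlr2, the receptor for bacterial lipoproteins, was 785, 937, 910 and 715 against 91.8–103 CPM (-3.09 ± 0.12, adjusted p = 3.3e-14). The 2 peritoneal genes were the inflammasome sensors Naip1 (91–114 CPM, 2 choroid plexus counts) and Naip5 (57.4–66.9 against 20.5–25.5 CPM), near-identical family members that counting may confuse. Of 9 Fc receptors, 2 were called, Fcgr1 (338–399 against 29.9–71.4 CPM, -2.81 ± 0.25) and Fcrls (1911–2067 against 11.9–59.7 CPM, -5.68 ± 0.34), both higher in the choroid plexus (adjusted p = 1.38e-08 and 5.24e-11). That count is near the background of 24.1%.

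Of 22 genes of lipid carriage, 11 were higher in peritoneal macrophages (background 12.6%) and 4 in the choroid plexus (background 24.1%), with a median of 0.83. The fatty acid binding proteins Fabp7 (166, 107, 112 and 114 CPM), Fabp4 (262, 312, 289 and 233 CPM) and Fabp5 (182, 257, 246 and 163 CPM) were at 4.96 CPM or less in the choroid plexus. For Fabp5 the change was 6.04 ± 0.26 (adjusted p = 1.31e-13). The choroid plexus had more Apoe and more of the cholesterol exporter Abca1 (393–552 against 74.2–202 CPM, -1.94 ± 0.22, adjusted p = 2.85e-07). Cholesterol synthesis genes were mostly not called, 1 of 19 higher in peritoneal (Mvd) and 4 in choroid plexus macrophages, a count that ran from 3 to 6 over the alternatives.

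Enzymes of eicosanoid synthesis, which turn arachidonic acid into prostaglandins and leukotrienes, were called in both directions, 6 and 5 of 16 (median 0.11). Peritoneal macrophages had prostacyclin synthase Ptgis (320, 360, 360 and 411 against 1.45–5.53 CPM, 6.66 ± 0.59, adjusted p = 4.24e-08), 5-lipoxygenase Alox5 (530–717 against 75.1–114 CPM, 2.74 ± 0.15) and leukotriene C4 synthase Ltc4s (329–432 against 56.7–77.8 CPM, 2.49 ± 0.16). Of Ltc4s exon bases, 26.4% overlap Gm26542 on the other strand. The choroid plexus had the prostaglandin-degrading enzyme Hpgd (1075, 975, 917 and 981 against 1.35–3.31 CPM, -8.93 ± 0.24, adjusted p = 7.02e-17), the synthase Hpgds (129–162 against 0.257–0.726 CPM) and the inducible cyclooxygenase Ptgs2 (38.1, 119, 80.5 and 39.6 against 0–0.172 CPM). Ptgs2 was again higher in replicates 2 and 3.

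Of 29 lysosomal genes 18 were not called and 10 were higher in the choroid plexus (background 24.1%), among them Cd63 (381–437 against 26.5–53.4 CPM) and Lgmn (2283–2440 against 361–501 CPM). The protease Ctsd was the 1 gene called higher in peritoneal macrophages, at 4561–4723 against 1716–2227 CPM (1.22 ± 0.10, adjusted p = 3.88e-09). Of Ctsd's exon bases 34.4% lie in the same-strand model Gm49369. The list median was -0.58. Of 16 iron and heme genes 7 were higher in the choroid plexus and 1 in peritoneal macrophages (median -0.86), the iron exporter Slc40a1 being 40–55.4 against 0–0.129 CPM (-9.58 ± 0.41, adjusted p = 2.31e-13).

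TGF-beta pathway genes had 3 of 19 higher in peritoneal (background 12.6%) and 9 in choroid plexus macrophages (background 24.1%, median -0.58). Ltbp1, which anchors latent TGF-beta to matrix, was 1286, 1947, 1054 and 1806 against 1.92–5.46 CPM (8.75 ± 0.55, adjusted p = 3.64e-10). The receptor Acvrl1 (153–186 against 1.31–2.66 CPM, -6.48 ± 0.18) and the repressors Smad7 (39.2–49.2 against 0.104–2.48 CPM) and Skil (233–374 against 9.45–18.4 CPM) were higher in the choroid plexus. Of 19 genes in the list at 1 CPM or more in the choroid plexus, 4 had the pattern of microglia replicate 3, among them Id3 (48.4–120 against 1.93–7.33 CPM).

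Genes of arginine use and alternative activation were called in both directions, 6 and 7 of 16 (median 0.75). Arginase (Arg1) was 993, 465, 1551 and 562 against 0.0635–0.791 CPM, and Retnla, a secreted resistin-like protein, 582, 1200, 682 and 705 against 0.148–2.3 CPM. Without choroid plexus replicate 2 the change of Arg1 went from 11.58 to 12.89, and without replicate 3 that of Retnla from 9.98 to 11.52. The arginine transporter Slc7a2 was 147–200 against 2.44–13.6 CPM. Mrc1, Mgl2 (92–132 against 5.84–10.7 CPM, -3.54 ± 0.21) and Socs3 (479–1038 against 100–169 CPM, -2.32 ± 0.24) of the same list were higher in the choroid plexus (adjusted p = 1.96e-14, 2.06e-11 and 1.15e-07).

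In energy metabolism, 7 of 19 glycolytic genes were higher in peritoneal macrophages (background 12.6%). In the choroid plexus 4 were higher, near the background of 24.1% (median 0.62). Ldha, which makes lactate, was 1425, 1136, 1789 and 1283 against 299.8, 260, 293 and 325 CPM (2.26 ± 0.13, adjusted p = 1.09e-11), and Gapdh 1025–1120 against 252–318 CPM (1.92 ± 0.11, adjusted p = 5.54e-12). The neuronal-type glucose transporter Slc2a3 (28.7–30.6 against 0–0.864 CPM) and the glycolytic regulator Pfkfb3 (110–155 against 11.6–23.4 CPM, -2.86 ± 0.19) were higher in the choroid plexus. Of 19 oxidative phosphorylation genes 5 were higher in peritoneal macrophages and none in the choroid plexus (median 0.43), such as Ndufa1 (48.9–81.1 against 20–23.4 CPM, 1.68 ± 0.28, adjusted p = 4.24e-05).

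Cell cycle genes were higher in peritoneal macrophages, 17 of 18 with none lower (median 2.03, background 12.6%). Rrm2, a subunit of the enzyme that makes DNA precursors, was 111, 58.8, 103 and 54.1 against 8.28, 7.58, 7.52 and 13.8 CPM (3.13 ± 0.39, adjusted p = 1.38e-06). Top2a was 66.1–159 against 14.2–23 CPM (2.50 ± 0.38, adjusted p = 1.77e-05), and Mki67 30.2–62.6 against 7.24–15.6 CPM (1.93 ± 0.39, adjusted p = 0.000313). The groups did not overlap for these 3 genes, as for 8192 of the 13960 tested genes. Top2a and Mki67 were chosen after their values were seen. Over the alternatives 15 to 17 of the 18 were called.

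Interferon response genes varied among the peritoneal libraries. Irf7 was 566, 77.2, 82.9 and 759 CPM there and 201–276 CPM in the choroid plexus, so the groups overlapped and it was not called (edgeR adjusted p = 0.511). Ifit2 was 35, 4.01, 3.07 and 8.36 against 106–136 CPM, and its change of -3.25 became -4.56 without peritoneal replicate 1. Of 20 tested, 7 were higher in the choroid plexus and 1, Gbp3, in peritoneal macrophages (median -1.20). The 7 ran from 5 to 11 over the alternatives, with 11 in the fit with a replicate block.

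Of 12 monocyte genes 8 were higher in peritoneal macrophages and 1, Ms4a4c, in the choroid plexus (median 6.12). The members that moved include Lyz2, the macrophage lysozyme (38702, 44687, 58853 and 33338 against 7958, 9082, 9522 and 7444 CPM, 2.37 ± 0.15, adjusted p = 2.47e-11), S100a4, Hp and Fn1. Of S100a4's exon bases 51.7% lie in the same-strand model Gm42674. Of the defining monocyte genes, Ly6c2 was 0.0729–3.63 against 0.0659–0.699 CPM and Ccr2 30.4–144 against 70.1–124 CPM, and neither was called (edgeR adjusted p = 0.0659 and 0.722). Ly6c2 and Plac8 were called higher in peritoneal macrophages, making 10 of 12, with DESeq2 (adjusted p = 0.0328 and 0.0224) and with the epithelial covariate (0.047 and 0.0415). The same held without peritoneal replicate 2 (0.0314 and 0.0243), peritoneal replicate 3 (0.0426 and 0.0371) or choroid plexus replicate 4 (0.0443 and 0.0247). Mesothelial genes such as Msln and Upk3b had no count on either side. The list of 10 summed to 0.547–1.52 CPM in peritoneal and 0.0659–0.677 CPM in choroid plexus libraries, and its 4 tested genes were not called.

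**Figure D5:**
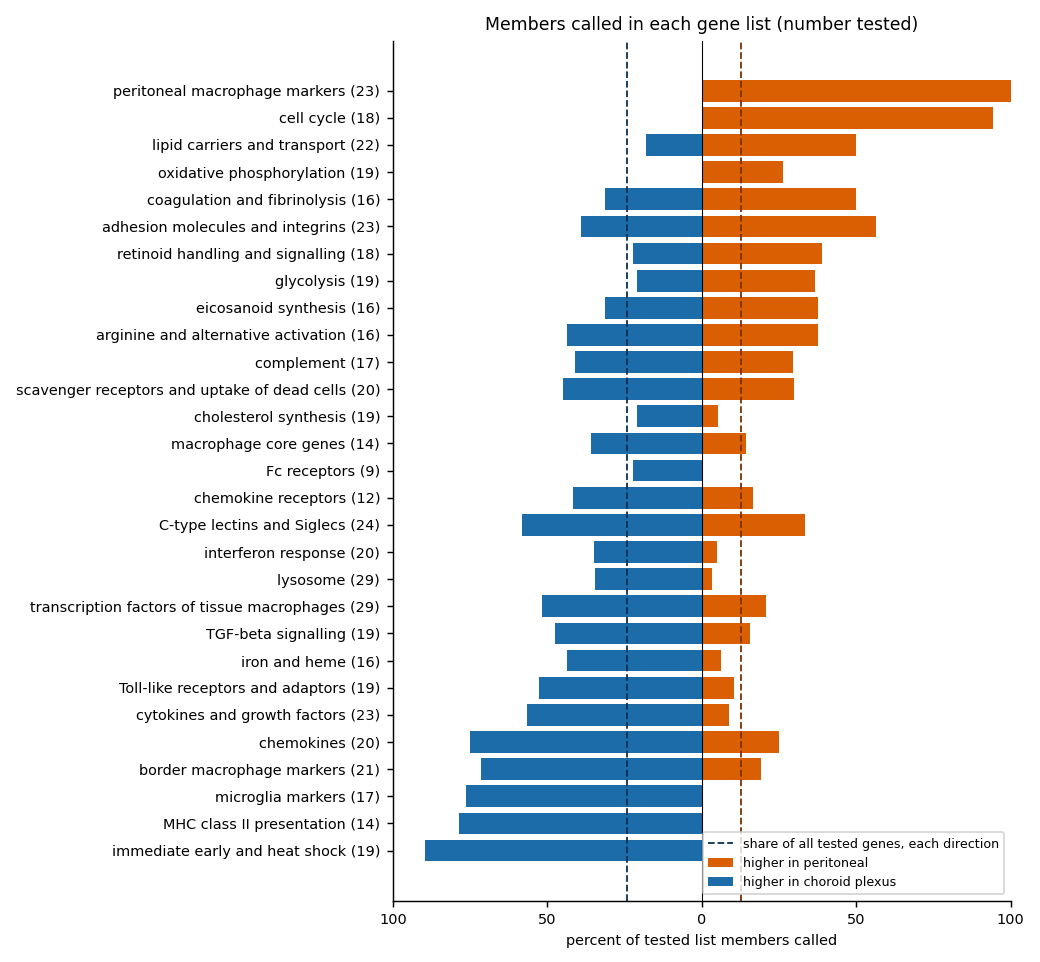
Percent of tested members of each of the 29 macrophage gene lists called higher in peritoneal (right) and choroid plexus macrophages (left), with the number tested in brackets and dashed lines at 12.6% and 24.1%, the shares over all tested genes. Peritoneal markers and cell cycle genes extend furthest right, and immediate early, MHC class II and microglia marker genes furthest left.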

How the data were processed

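Read counts per gene symbol, deposited by the authors as whole numbers for each library, were used as given, without the lines for reads given to no gene (5.94–6.97% in no feature for peritoneal and 7.39–10.5% for choroid plexus). Per the submitters' processing notes the build was mm10, and SAMtools 0.1.18, TopHat2 2.1.0, Trimmomatic 0.38 and FastQC 0.11.4 were used. The counter, its annotation and its use of strand were not given in the sources used here. All 20 libraries were fitted in edgeR 4.0.16 (R 4.3.3) with filterByExpr, TMM and the robust quasi-likelihood F test (15 residual degrees of freedom), and p-values were adjusted over 13960 genes by Benjamini-Hochberg. The fit was also run on simulated data with few known changes, balanced in direction. That setting does not cover a contrast with as many uneven changes as this one, and nothing here rests on it. Fold bounds use 3 counts over a group. These bounds and the 95% counting intervals cover counting error only, since the reads are described without molecular identifiers. Positions and exon overlaps come from GENCODE M21, which holds 23376 of 24421 symbols, and promoters from RefSeq.

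The 722 genes in 45 lists and the members were chosen with earlier results of these data known. Named genes are the 14 largest called differences in each direction at 20 CPM or more with no overlap between groups, outside the lists of other cells, those in the choroid plexus at 25% of its level in another brain population, plus 6 below that, the marker genes, and up to 4 list members in each direction at 10 CPM or more. The 20 largest choroid plexus genes with neither pattern, the patterns themselves, and Tmem119, P2ry12, Sall1, Trem2, Flt3, Zbtb46, Xcr1, Ccr2, Ly6c2, Plac8, Lyz2, Calml4, Lbp, Ezr, Cab39l, Irf7, Cd79a, Ms4a1, Mki67, Top2a, Hspa1a, Cbr2 and Maf were chosen after the values were seen. Same-numbered peritoneal and choroid plexus libraries did not deviate together (correlations -0.04 to 0.06 across genes). Different tissues of the same animal need not deviate together, so this does not decide whether the numbers pair samples. Alternatives were DESeq2 1.42.0, RLE scaling, other filters, fewer libraries, equal depth, a replicate block and an epithelial covariate.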

Additional observations from a re-analysis of the deposited data

Results flagged for a closer look

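A value far from the other 3 of its group was looked for in 397 gene groups of 4 libraries, and 30 were found. Chance alone marks about 1 in 20 such groups, and each is listed as a value only. Choroid plexus replicate 4 holds 9 of them and peritoneal replicate 1 holds 6.

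In choroid plexus replicate 1, Ch25h was lowest at 80.1 CPM (others 118–125 CPM) and Slc2a3 was highest at 30.6 CPM (others 28.7–28.8 CPM). Ndufa1 was highest at 23.4 CPM (others 20–20.5 CPM). In choroid plexus replicate 2, Naip5 was highest at 25.5 CPM (others 20.5–20.5 CPM) and Apoc1 was highest at 2.37 CPM (others 2.03–2.07 CPM). Atp5o was lowest at 42.3 CPM (others 57.4–59.3 CPM). In choroid plexus replicate 3, Olfml3 was highest at 955 CPM (others 903–912 CPM) and Retnla was highest at 2.3 CPM (others 0.148–0.396 CPM). Cd4 was highest at 127 CPM (others 94.5–95.3 CPM) and Batf3 was highest at 17.7 CPM (others 12.9–13.7 CPM). In choroid plexus replicate 4, F11r was lowest at 425 CPM (others 487–497 CPM) and Itga8 was highest at 138 CPM (others 50.9–63.7 CPM). Col1a1 was highest at 207 CPM (others 62.7–81.1 CPM) and Rarb was highest at 14.2 CPM (others 3.84–5.42 CPM). F3 was highest at 104 CPM (others 30.4–41.8 CPM) and Tlr12 was highest at 70.8 CPM (others 40.4–45 CPM). Steap3 was highest at 15.1 CPM (others 9.43–9.98 CPM) and Eno1 was lowest at 1.33 CPM (others 2.37–2.51 CPM). Rrm2 was highest at 13.8 CPM (others 7.52–8.28 CPM).

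In peritoneal replicate 1, Aif1 was highest at 24.9 CPM (others 6.69–8.83 CPM) and Clec12a was highest at 18.1 CPM (others 4.45–5.83 CPM). Fabp7 was highest at 166 CPM (others 107–114 CPM) and Mgl2 was lowest at 5.84 CPM (others 10–10.7 CPM). Socs1 was highest at 12.5 CPM (others 1.82–3.47 CPM) and Ifit2 was highest at 35 CPM (others 3.07–8.36 CPM). In peritoneal replicate 2, Acsl1 was highest at 52.2 CPM (others 38–39.1 CPM). In peritoneal replicate 3, Ccl6 was highest at 4760 CPM (others 1838–2318 CPM). In peritoneal replicate 4, Rarb was highest at 72.8 CPM (others 38.2–42.4 CPM) and Tlr5 was highest at 1.54 CPM (others 0.401–0.517 CPM). Chil3 was highest at 45.3 CPM (others 9.19–12.1 CPM).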

How the results depend on the processing

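Both counts of called genes stayed within 1.5 times their value under all alternative fits. Genes higher in peritoneal macrophages numbered 1612–1889 and genes higher in the choroid plexus 2844–3663; with 1 of the 8 libraries left out the ranges were 1612–1889 and 3242–3375. DESeq2 called 1794 and 3312, equal depth 1747 and 3067, and a covariate for the epithelial level 1772 and 3401. A fit of the 8 libraries with a replicate block called 1726 and 2844, against 1794 and 2846 without the block. Whether the numbers pair samples is not known. Genes met by the 25% rule numbered 3105 (3208 at 10%, 2858 at 50%), and genes with neither pattern 2474 (2325 with a ratio of 3 and 2668 with a ratio of 10 in microglia replicate 3).

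Of 248 named genes, Ccr2 and Cxcr2, neither of them called, changed sign. The log2 fold change of Ccr2 went from 0.14 to -0.0047 with the replicate block and -0.0036 without peritoneal replicate 1, and ranged from -0.0875 to 0.4336 with single libraries left out. The log2 fold change of Cxcr2 went from -0.1686 to 0.0231 without choroid plexus replicate 2, in a range of -0.3151 to 0.0231. Cd59a, Xcr1, Lbp, Hmgcs1, Tyrobp, Atp5o and Smad3 lost their call when some single library was left out, Hmgcs1 also at equal depth and Xcr1 also with the block, and Sall1 gained one with DESeq2 (adjusted p = 0.0496). The cause was not tested. Fitted folds of genes near 0 on 1 side move by more than 1.5 times with single libraries, since they rest on a few counts, and levels are the safer reading. Depth limits levels under about 3 counts in a library.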
